A study of Mus musculus with 23 samples.

Results

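Ribosomal proteins are the protein building blocks of the ribosome, and their genes were followed here in mouse aortic endothelial cells that had been kept in plasma of 4 kinds of donor mice. Members were the genes whose array symbol begins with Rpl or Rps (or Rplp) and a number, without the Rps6k kinases. The rule also leaves out 1 pseudogene symbol. It found 107 of the 24704 named genes, of which 69 had a plain gene symbol and 38 had -ps in the symbol, the mark of a pseudogene. The rule uses no measured value, though it was set with earlier results of these data known. The cells were primary endothelial cells of the mouse aorta (MAOEC), bought as C57 cells, grown to confluence, and then given medium in which 10% plasma replaced the serum for 48 h. Plasma came from ApoE-Stab2-KO mice (6 arrays), ApoE-Stab1-KO mice (6 arrays), ApoE-KO mice (5 arrays) or Wildtype mice (6 arrays), all labelled C57BL/6J. The genotype is therefore that of the plasma donor, and the cells are the same in every group. The knockout donors had eaten a Western diet for 8 weeks. The protocol names no diet for the Wildtype donors, so donor genotype and diet cannot be told apart in a comparison with Wildtype, and the donors' age is not in the labels. Whether the replicates came from separate donors or separate wells is also not stated, so p-values measure the spread between arrays, which may be technical.

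A ribosome has a large and a small subunit. Proteins named Rpl belong to the large subunit and those named Rps to the small one, and Rplp0, Rplp1 and Rplp2 form the stalk to which translation factors dock. Their mRNAs carry a 5′ terminal run of pyrimidines (the TOP motif) through which mTORC1 signalling sets their translation, and processed copies of these mRNAs have been pasted back into the genome many times, which is why the family has so many pseudogenes. Apolipoprotein E clears lipoprotein remnants from plasma, and Stab1 and Stab2 are scavenger receptors of sinusoidal endothelium.

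A list of the 79 proteins of the mammalian cytoplasmic ribosome served to sort the members. Of these 79, 54 were members: 31 of the large subunit, 21 of the small subunit and 2 of the stalk. A further 2, Rpsa and Fau, were in the table under symbols that the pattern does not take, and 23, among them Rplp2, Rps6 and Rpl11, were not analysed here. Another 10 members without -ps were paralogs or genes named after a ribosomal protein, and 5 (Rps3a2, Rps3a3, Rpl6l, Rps12l1 and Rps4l) are classed by RefSeq as pseudogenes although their symbol has no -ps. These 5 were kept among the 69 genes, as the symbol rule puts them.

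The deposited values are log2 values, and a value says how bright a gene's probes were, so a level is compared below between arrays for the same gene or with the median of all genes on these arrays (4.30). The order of probe sets by brightness served to pick bright and dim members for description. It also chose which probe set stood for a repeated symbol. Levels further set the ranges in which spread was compared and the filter of an alternative setting. The main tests had no filter on dim genes, and all 107 members were tested. Values ran from 2.52 to 13.94 over the 23 arrays, and the arrays correlated with each other at 0.992 to 0.997. The label of the cells was checked with 10 endothelial markers (Pecam1, Cdh5 and others), all of which lay above the median of all genes, at 8.27 to 12.76. Markers of other cells were mostly below it, with 2 of 5 smooth muscle, 2 of 5 fibroblast, 1 of 5 macrophage, 3 of 4 lymphatic and 0 of 2 blood markers above. The mean of the smooth muscle markers on an array ran from 4.21 to 4.37 with ApoE-Stab2-KO plasma, 4.24 to 4.34 with ApoE-Stab1-KO plasma, 4.25 to 4.41 with ApoE-KO plasma and 4.29 to 4.40 with Wildtype plasma, ranges that overlap. In bulk RNA of this kind, fewer cells of a type and less RNA per cell cannot be told apart.

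One array had the lowest mean of the 38 pseudogenes. On ApoE-Stab1-KO replicate 1 that mean was 6.55, against 6.73 to 6.88 on the other arrays of its group, while the mean of the 69 genes on it (5.78) lay inside the range of its group. That gap was within Dixon's limit for an outlier. Rpl17-ps3 was the member farthest from its group, at 8.84 on this array and 10.84 to 11.65 on the rest of the group. Its gap was past Dixon's limit. The pseudogene medians, the member counts and the differences of named pseudogenes with ApoE-Stab1-KO plasma are given below with and without this array.

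No member passed the test in any comparison. With a moderated F-test over the 4 plasma groups (limma, Benjamini-Hochberg adjustment over all 24704 genes) 0 of 107 members had an adjusted p under 0.05, where 0.546% of all genes passed. The smallest adjusted p of a member was 0.146, that of Rps29. At an unadjusted p under 0.05 there were 13 members (12.1%), beside 11.9% of all genes. These 13 were 4 of the 69 genes (5.8%) and 9 of the 38 pseudogenes (23.7%). With single arrays left out the pseudogene count ran from 7 to 10, and it was 10 without ApoE-Stab1-KO replicate 1. Other processing settings gave 6 to 11. All members are read on the same arrays, so these counts are not of independent tests.

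The 6 pairwise comparisons gave the same count of 0 called members in each. For ApoE-KO minus Wildtype the background was 0.53% of all genes called, and the smallest adjusted p of a member was 0.172. In ApoE-Stab1-KO minus Wildtype 0.364% of all genes were called and the smallest adjusted p was 0.13. The background of ApoE-Stab2-KO minus Wildtype was 0.178%, with 0.34 as the smallest adjusted p. Among the knockout plasmas, 0.00405% of genes were called in ApoE-Stab1-KO minus ApoE-KO, 0.0243% in ApoE-Stab2-KO minus ApoE-KO and 0.0486% in ApoE-Stab2-KO minus ApoE-Stab1-KO. The smallest adjusted p of a member in these 3 was 0.676, 0.301 and 0.0983. Comparisons that share a plasma group share its arrays, so their values are not independent of each other.

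Unadjusted counts were set beside those of all genes. In ApoE-KO minus Wildtype 11 members (10.3%) had an unadjusted p under 0.05, beside 10.5% of all genes; 8 had the higher mean with ApoE-KO plasma and 3 the lower, beside 5.41% and 5.12% of all genes. The count was 17 (15.9%, beside 11.3%) for ApoE-Stab1-KO minus Wildtype, with 8 higher and 9 lower, beside 5.74% and 5.55%. For ApoE-Stab2-KO minus Wildtype it was 10 (9.35%, beside 8.49%), with 6 higher and 4 lower, beside 4.27% and 4.22%. In ApoE-Stab1-KO minus ApoE-KO it was 10 (9.35%, beside 5.57%), with 2 higher and 8 lower, beside 2.83% and 2.74%, and all but 2 of the 10 were pseudogenes. In ApoE-Stab2-KO minus ApoE-KO it was 11 (10.3%, beside 8.36%), with 9 higher and 2 lower, beside 3.94% and 4.42%. The highest count was in ApoE-Stab2-KO minus ApoE-Stab1-KO, with 23 members (21.5%) beside 11% of all genes. Of these 23, 17 had the higher mean with ApoE-Stab2-KO plasma and 6 the lower one, while 5.2% of all genes were past that threshold upward and 5.78% downward. None of the 23 passed after adjustment over all genes. Without ApoE-Stab1-KO replicate 1 the unadjusted count was 25 in ApoE-Stab2-KO minus ApoE-Stab1-KO, 11 in ApoE-Stab1-KO minus ApoE-KO, 16 in ApoE-Stab1-KO minus Wildtype and 18 in the F-test.

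**Figure D1:**
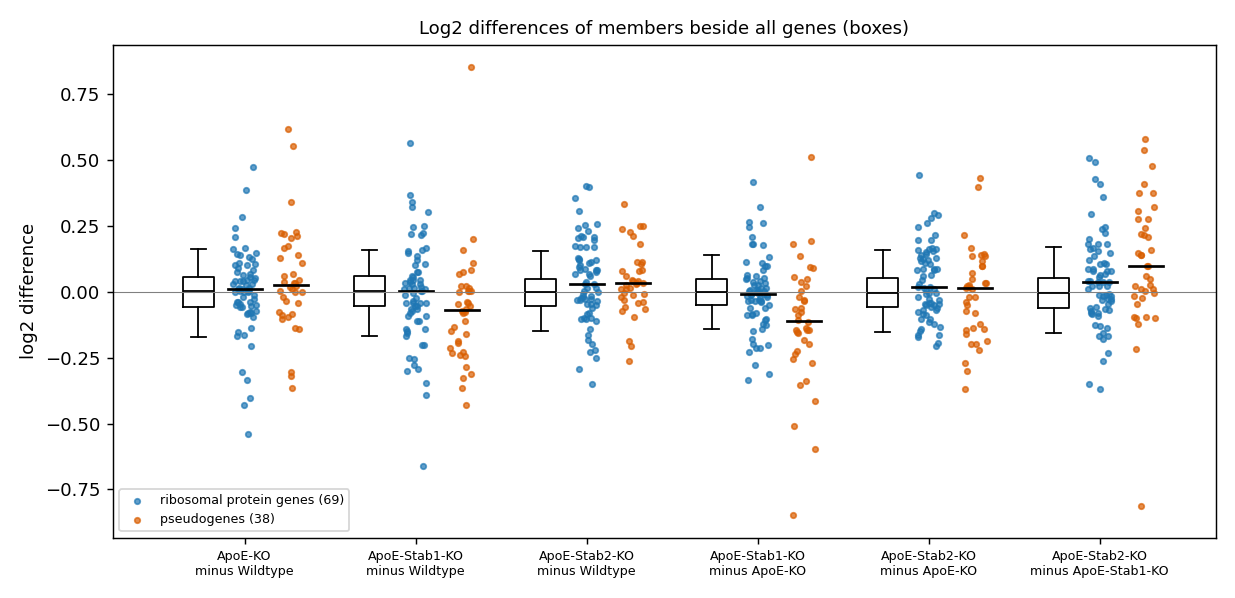
Log2 difference (vertical axis) of each of the 69 genes (blue) and 38 pseudogenes (orange) in the 6 comparisons, with a black bar at each median; boxes give the quartiles of all 24704 genes with whiskers to the 5th and 95th percentile. The members scatter around 0 on both sides, and the pseudogene median is at -0.07 in ApoE-Stab1-KO minus Wildtype, -0.11 in ApoE-Stab1-KO minus ApoE-KO and 0.10 in ApoE-Stab2-KO minus ApoE-Stab1-KO.

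The mean of the 69 genes on an array was 5.83 ± 0.04 with ApoE-Stab2-KO plasma, 5.79 ± 0.05 with ApoE-Stab1-KO plasma, 5.79 ± 0.06 with ApoE-KO plasma and 5.79 ± 0.02 with Wildtype plasma (SD, n = 6, 6, 5 and 6). The array means of the 4 groups overlapped. Their median log2 difference was 0.036 in ApoE-Stab2-KO minus ApoE-Stab1-KO and 0.031 in ApoE-Stab2-KO minus Wildtype, beside -0.0039 and -0.0020 for all genes, and it was between -0.0078 and 0.017 in the other 4 comparisons. The 0.036 was 0.013 without ApoE-Stab1-KO replicate 6, and the 0.031 was 0.011 without Wildtype replicate 6.

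The 38 pseudogenes averaged 6.89 ± 0.03 with ApoE-Stab2-KO plasma, 6.78 ± 0.12 with ApoE-Stab1-KO plasma, 6.90 ± 0.09 with ApoE-KO plasma and 6.85 ± 0.08 with Wildtype plasma (SD, n = 6, 6, 5 and 6). Their median log2 difference was 0.097 in ApoE-Stab2-KO minus ApoE-Stab1-KO, -0.11 in ApoE-Stab1-KO minus ApoE-KO and -0.068 in ApoE-Stab1-KO minus Wildtype. Without ApoE-Stab1-KO replicate 1 the same medians were 0.033, -0.072 and -0.023. In the 3 comparisons without ApoE-Stab1-KO plasma the pseudogene median was 0.028 in ApoE-KO minus Wildtype (0.0086 without ApoE-KO replicate 2), 0.033 in ApoE-Stab2-KO minus Wildtype (0.015 without Wildtype replicate 1) and 0.014 in ApoE-Stab2-KO minus ApoE-KO. The last had no settled sign, being -0.025 without ApoE-KO replicate 1.

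**Figure D2:**
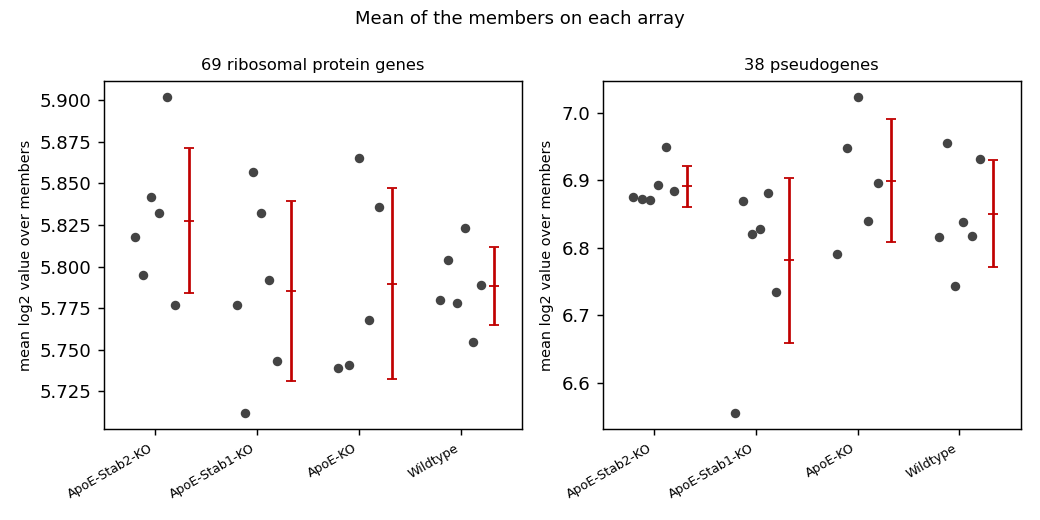
Mean log2 value of the 69 genes (left) and the 38 pseudogenes (right) on each of the 23 arrays, by plasma group, with group mean and SD in red. The groups overlap in both panels, and the lowest point of the right panel, 6.55, is ApoE-Stab1-KO replicate 1.

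In the stalk, Rplp1, an acidic protein that helps recruit translation factors, was far above the median of all genes. It ran from 12.54 through a median of 12.65 to 12.82 with ApoE-Stab2-KO plasma and from 12.58 through 12.60 to 12.79 with ApoE-Stab1-KO plasma. Its values were 12.47, 12.56, 12.60, 12.64 and 12.60 with ApoE-KO plasma, and 12.38 through 12.61 to 12.64 with Wildtype plasma. The groups overlapped throughout (F-test adjusted p = 0.716). Rplp0 carries the acidic proteins at the base of the stalk and is in common use as a reference gene. It ran from 6.08 through a median of 6.30 to 6.46 with ApoE-Stab2-KO plasma and from 6.33 through 6.62 to 6.93 with ApoE-Stab1-KO plasma. With ApoE-KO plasma the values were 6.36, 6.17, 6.53, 6.56 and 6.31, and with Wildtype plasma they ran from 6.07 through 6.41 to 6.59. Of the 6 ApoE-Stab1-KO arrays, 5 lay above every ApoE-Stab2-KO array, and the sixth lay inside their range. The Rplp0 difference for ApoE-Stab2-KO minus ApoE-Stab1-KO was -0.35 ± 0.10 (SE), with an adjusted p of 0.166.

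Among proteins of the large subunit, Rpl8 sits near the peptidyl transferase centre. Rpl8 ran from 11.32 through a median of 11.38 to 11.50 with ApoE-Stab2-KO plasma and from 11.27 through 11.32 to 11.38 with ApoE-Stab1-KO plasma. It was 11.19, 11.21, 11.29, 11.32 and 11.32 with ApoE-KO plasma and 11.27 through 11.35 to 11.42 with Wildtype plasma. The ApoE-Stab2-KO arrays met the ApoE-KO arrays only at 11.32. The difference for ApoE-Stab2-KO minus ApoE-KO was 0.14 ± 0.04 (SE), with an adjusted p of 0.301. Rpl4, which lines the tunnel through which the new peptide leaves, was also far above the median of all genes. Rpl4 averaged 12.47 ± 0.03 with ApoE-Stab2-KO plasma, 12.53 ± 0.06 with ApoE-Stab1-KO plasma, 12.48 ± 0.04 with ApoE-KO plasma and 12.52 ± 0.07 with Wildtype plasma (SD), with an F-test adjusted p of 0.775.

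Rpl17, another protein of the exit tunnel, was dim, below the median of all genes. Its levels were 3.66 through a median of 3.79 to 4.07 with ApoE-Stab2-KO plasma and 3.30 through 3.60 to 3.85 with ApoE-Stab1-KO plasma. They were 3.23, 3.62, 3.15, 3.69 and 3.92 with ApoE-KO plasma and 3.48 through 3.95 to 4.30 with Wildtype plasma. The groups overlapped, and the difference for ApoE-KO minus Wildtype was -0.40 ± 0.13 (SE), with an adjusted p of 0.217. Rpl37, a small zinc-binding protein of the large subunit, had the opposite sign in the same comparison. It was 4.31, 4.21, 4.42, 4.27 and 4.98 with ApoE-KO plasma, and ran from 3.53 through 4.05 to 4.44 with Wildtype plasma. ApoE-KO replicate 5 was the highest array of all 23 for Rpl37. The difference was 0.39 ± 0.13 (SE), with an adjusted p of 0.243. Rpl23, which binds the p53 regulator Mdm2 when it is free of the ribosome, ran from 7.33 through 7.41 to 7.59 with ApoE-Stab2-KO plasma and from 7.38 through 7.68 to 7.79 with Wildtype plasma. Its difference was -0.22 ± 0.08 (SE), with an adjusted p of 0.392.

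The least even of the large subunit genes was Rpl6. It ran from 4.18 through 4.43 to 5.12 with ApoE-Stab2-KO plasma, from 3.87 through 4.19 to 5.56 with ApoE-Stab1-KO plasma, from 3.99 through 4.29 to 4.83 with ApoE-KO plasma and from 3.44 through 4.55 to 4.98 with Wildtype plasma. Arrays within each plasma group of Rpl6 differed by more than the group means did (F-test adjusted p = 0.925).

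In the small subunit, Rps29, a zinc-finger protein that is mutated in some human patients with Diamond-Blackfan anaemia, had the smallest p of all members. Rps29 ran from 3.17 through a median of 3.30 to 3.46 with ApoE-Stab2-KO plasma and from 2.92 through 3.06 to 3.17 with ApoE-Stab1-KO plasma. It was 3.07, 3.07, 3.08, 3.29 and 3.19 with ApoE-KO plasma and 3.06 through 3.15 to 3.28 with Wildtype plasma. Only the lowest ApoE-Stab2-KO array fell inside the range of the ApoE-Stab1-KO arrays. The Rps29 difference for ApoE-Stab2-KO minus ApoE-Stab1-KO was 0.24 ± 0.06 (SE), with an adjusted p of 0.0983. All of these values lie below the median of all genes.

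Rps20, which lies in the head of the small subunit, ran from 3.86 through 4.04 to 4.23 with ApoE-Stab2-KO plasma and from 3.57 through 3.80 to 4.01 with Wildtype plasma. Its difference for ApoE-Stab2-KO minus Wildtype was 0.26 ± 0.09 (SE), with an adjusted p of 0.402. Rps21 was bright and even, at 11.22 ± 0.06 with ApoE-Stab2-KO plasma and 11.11 ± 0.04 with ApoE-Stab1-KO plasma (SD), a difference of 0.10 ± 0.05 (SE) with an adjusted p of 0.449. Rps26, which lies at the path of the mRNA, was dim and differed by 0.16 ± 0.07 (SE) in ApoE-Stab1-KO minus Wildtype (adjusted p = 0.435).

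**Figure D3:**
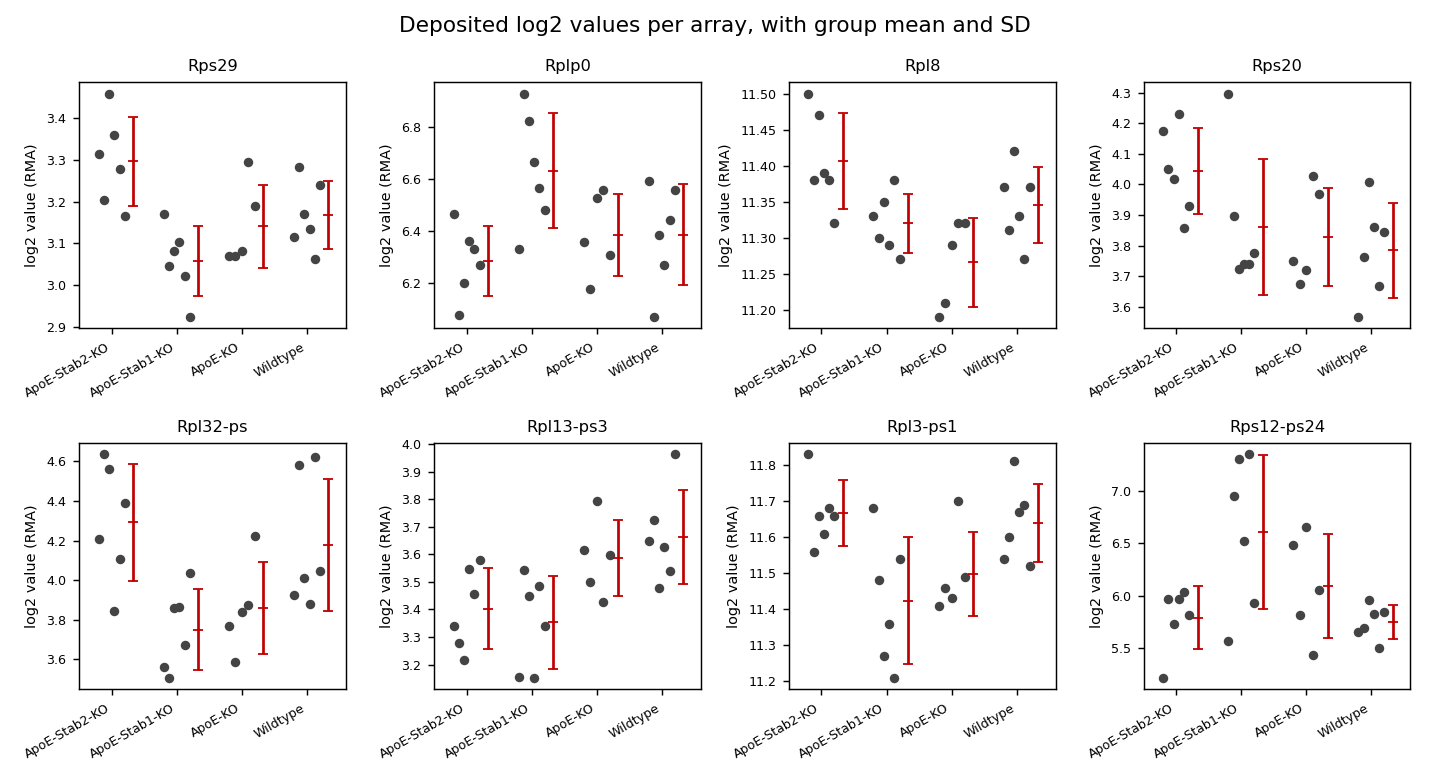
Deposited log2 value on every array for 4 genes (top) and 4 pseudogenes (bottom), by plasma group, with group mean and SD in red; each panel has its own vertical axis. Rps29 is at 3.17 to 3.46 with ApoE-Stab2-KO plasma and 2.92 to 3.17 with ApoE-Stab1-KO plasma, and 5 of 6 ApoE-Stab1-KO arrays of Rplp0 lie above all ApoE-Stab2-KO arrays.

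Several ribosomal proteins have a second gene or a copy named like one, and these pairs were read apart. Rps4l, set beside Rps4x, is classed by RefSeq as a transcribed pseudogene, and Rpl39 was not analysed here. Rpl3l replaces Rpl3 in striated muscle, Rpl10l stands in for the X-linked Rpl10 in male germ cells, and Rpl39l is a testis form of Rpl39. Rpl3l (mean 3.69), Rpl10l (3.22) and Rpl10 (2.96) were below the median of all genes, as was Rpl3 (3.68), and Rpl39l was just above it (4.38). A dim probe set does not show that an mRNA is scarce, because probe sets differ in how bright they are for the same RNA. The F-test adjusted p of these 5 lay between 0.593 and 0.948. For probe sets this dim, the lack of a call is no evidence that the mRNA level was steady. Rps27 and its paralog Rps27l, a p53 target in human cells, were both above the median, with means of 7.31 and 7.52 and adjusted p of 0.910 and 0.776.

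Rpl22l1 and Rpl22 were of interest because Rpl22 protein lowers Rpl22l1 in mouse cells. Rpl22l1 ran from 10.35 through 10.55 to 10.62 with ApoE-Stab2-KO plasma, from 10.03 through 10.70 to 10.86 with ApoE-Stab1-KO plasma, and from 10.60 through 10.83 to 11.07 with Wildtype plasma. With ApoE-KO plasma it was 10.69, 10.33, 10.90, 10.61 and 10.52. Its difference for ApoE-Stab2-KO minus Wildtype was -0.29 ± 0.11 (SE), with an adjusted p of 0.444. Rpl22 differed most between ApoE-Stab2-KO plasma (5.07 ± 0.19) and ApoE-Stab1-KO plasma (4.85 ± 0.18), by 0.22 ± 0.10 (SE), with an adjusted p of 0.393. In 3 other pairs a member had an unadjusted p under 0.05. Rpl36a, an X-linked gene, was 4.19 ± 0.28 with ApoE-Stab2-KO plasma and 3.76 ± 0.30 with ApoE-Stab1-KO plasma (adjusted p = 0.305), while its autosomal copy Rpl36al had an F-test adjusted p of 0.628. Rps4x, also X-linked, was 5.11 ± 0.37 with ApoE-KO plasma and 5.54 ± 0.24 with Wildtype plasma (adjusted p = 0.356), and Rps4l had an F-test adjusted p of 0.999. Rpl7 was 4.04 ± 0.65 with ApoE-Stab1-KO plasma and 4.71 ± 0.49 with Wildtype plasma (adjusted p = 0.319), and Rpl7l1 had an F-test adjusted p of 0.891.

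RefSeq promoters (GRCm38.p6, 250 bases before to 50 after a listed start) were found for 52 of the 107 members, all 52 without -ps. The windows below run from 60 bases before the start through the first 15 bases from it, on the gene's strand (the first listed start where there are several), and were chosen to show 2 pairs of paralogs, Rpl4 as a gene far above the median, and Rpl37 as an example of a CCGGAAG match. Capitals mark the letters searched for.
Rpl4 (chr9:64173327-64173401, plus strand): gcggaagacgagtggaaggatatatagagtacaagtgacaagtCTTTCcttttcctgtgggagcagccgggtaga
Rps27 (chr3:90213634-90213708, minus strand): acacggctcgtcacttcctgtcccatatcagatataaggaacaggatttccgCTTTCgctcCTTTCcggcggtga
Rps27l (chr9:66946026-66946100, plus strand): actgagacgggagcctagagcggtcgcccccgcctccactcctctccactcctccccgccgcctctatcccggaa
Rpl22 (chr4:152325666-152325740, plus strand): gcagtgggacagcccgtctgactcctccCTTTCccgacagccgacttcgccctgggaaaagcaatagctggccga
Rpl22l1 (chr3:28805448-28805522, plus strand): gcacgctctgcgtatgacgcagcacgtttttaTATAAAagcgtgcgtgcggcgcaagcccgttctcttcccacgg
Rpl37 (chr15:5116553-5116627, plus strand): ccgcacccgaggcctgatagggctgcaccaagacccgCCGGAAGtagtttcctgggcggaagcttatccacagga

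The letters CTTTC, which a TOP start often holds, were searched on the gene's strand at positions -40 to 20 around the start. They were in 14 of the 52 members (26.9%), beside 9.42% of all 27025 genes with a promoter entry. Most of that stretch lies before the listed start, as do the CTTTC letters shown for Rpl4 and Rpl22. A match there is not in the listed mRNA, so the count is not one of TOP motifs. CCGGAAG, the core of sites bound by Ets-family factors, was in 16 members (30.8%) on either strand of the whole window, beside 9.93% of all genes. AAGATGGC, the core of YY1 sites, was in 5 members (9.62%), beside 3.19%. TATAAA, on the gene's strand at positions -40 to -10, was in 1 member (1.92%), Rpl22l1, beside 2.51%. Members and all genes had a similar number of listed starts (1.23 and 1.22 on average), and CCGGAAG can share its last letters with AAGATGGC. A match describes the letters of a window and is no evidence of binding. Rps27 holds CTTTC in the window shown and Rps27l does not, and both were above the median of all genes in all plasmas.

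The pseudogenes hold most of the members with an unadjusted p under 0.05 in the F-test. Rpl32-ps ran from 3.84 through a median of 4.30 to 4.64 with ApoE-Stab2-KO plasma and from 3.51 through 3.77 to 4.04 with ApoE-Stab1-KO plasma. It was 3.77, 3.58, 3.84, 3.88 and 4.22 with ApoE-KO plasma and 3.88 through 4.03 to 4.62 with Wildtype plasma. The ApoE-Stab2-KO and Wildtype arrays reached higher than the other 2 groups, and all groups overlapped. The Rpl32-ps difference for ApoE-Stab2-KO minus ApoE-Stab1-KO was 0.54 ± 0.15 (SE), with an adjusted p of 0.145. Without ApoE-Stab1-KO replicate 1 it was 0.50, with an adjusted p of 0.154.

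Rpl3-ps1, a bright member on the X chromosome, had the same order of group means. It was 11.67 ± 0.09 with ApoE-Stab2-KO plasma, 11.42 ± 0.17 with ApoE-Stab1-KO plasma, 11.50 ± 0.12 with ApoE-KO plasma and 11.64 ± 0.11 with Wildtype plasma (SD). For Rpl3-ps1 the difference was 0.24 ± 0.07 (SE) in ApoE-Stab2-KO minus ApoE-Stab1-KO (adjusted p = 0.183) and -0.21 ± 0.07 in ApoE-Stab1-KO minus Wildtype (adjusted p = 0.227). Without ApoE-Stab1-KO replicate 1 these were 0.29 (adjusted p = 0.0649) and -0.26 (adjusted p = 0.0808). Rpl13-ps3 was 3.40 ± 0.15 with ApoE-Stab2-KO plasma, 3.35 ± 0.17 with ApoE-Stab1-KO plasma, 3.59 ± 0.14 with ApoE-KO plasma and 3.66 ± 0.17 with Wildtype plasma. Both double knockout groups were on the low side for it, and the difference for ApoE-Stab1-KO minus Wildtype was -0.31 ± 0.09 (SE, adjusted p = 0.13), or -0.27 without replicate 1 of ApoE-Stab1-KO (adjusted p = 0.19).

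Rps12-ps24 had the largest difference of the 38 pseudogenes against Wildtype. It was 5.57, 6.95, 7.31, 6.52, 7.35 and 5.93 with ApoE-Stab1-KO plasma, and 5.50 through a median of 5.76 to 5.96 with Wildtype plasma. Of the 6 ApoE-Stab1-KO arrays, 4 lay above all Wildtype arrays and 2 lay within their range, 1 of these being replicate 1. The difference for Rps12-ps24 was 0.85 ± 0.25 (SE), with an adjusted p of 0.149. Without ApoE-Stab1-KO replicate 1 it was 1.06 ± 0.22 (SE), with an adjusted p of 0.032, and the F-test adjusted p was 0.0455. Leaving out that array was the sole single-array omission that brought this pseudogene past the threshold.

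In ApoE-KO minus Wildtype, Rps26-ps1 was 11.85, 11.95, 12.06, 11.89 and 11.88 with ApoE-KO plasma, and 11.48 through 11.73 to 11.89 with Wildtype plasma. Its difference was 0.23 ± 0.07 (SE), with an adjusted p of 0.172. Rps18-ps6 was the only member whose groups did not overlap in any comparison: 9.16, 9.52, 9.64, 9.14 and 9.18 with ApoE-KO plasma, and 7.95 through 8.91 to 9.05 with Wildtype plasma. In that comparison 1.98% of all genes had no overlap, and the difference of Rps18-ps6 was 0.56 ± 0.28 (SE), with an adjusted p of 0.5. Wildtype replicate 5 set the low end.

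Rpl30-ps8 and Rps19-ps13 were among the members with the smallest p against ApoE-KO plasma. Rpl30-ps8 ran from 4.79 through 5.30 to 6.19 with ApoE-Stab1-KO plasma and was 5.86, 6.09, 6.82, 6.12 and 6.32 with ApoE-KO plasma. Its difference was -0.85 ± 0.25 (SE), with an adjusted p of 0.676, and -0.74 without ApoE-Stab1-KO replicate 1 (adjusted p = 0.724). Rps19-ps13 ran from 3.27 through 3.46 to 3.69 with ApoE-Stab2-KO plasma and was 3.90, 3.76, 3.64, 3.61 and 3.66 with ApoE-KO plasma. Here the difference was -0.27 ± 0.09 (SE), with an adjusted p of 0.347, and the groups overlapped.

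A pseudogene can differ from its parent gene by few bases, so the probes of one may also read RNA of the other. That was not tested here, and a pseudogene's value is not proof that the pseudogene is transcribed. The parent gene was in the table for 25 of the 38 pseudogenes (17 parent genes), and the parent genes of the other 13 were not analysed here. In 9 of the 25 the pseudogene was above the median of all genes and its parent below. Rpl9-ps6 had a mean of 12.51 where Rpl9 had 3.21, Rps26-ps1 had 11.80 where Rps26 had 3.19, Rpl3-ps1 had 11.56 where Rpl3 had 3.68, Rps2-ps5 had 11.28 where Rps2 had 3.42, and Rpl17-ps3 had 11.22 where Rpl17 had 3.72. The opposite pattern, parent above and pseudogene below, held for 6, both were above for 8 and both below for 2. Probe sets differ in how bright they are for the same RNA, so these values place each probe set against the median and do not rank RNA amounts.

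Taken over all arrays, 47 of the 69 genes (68.1%) and 25 of the 38 pseudogenes (65.8%) had a mean above the median of all genes. The range of means was 2.82 to 12.61 for genes and 2.89 to 12.51 for pseudogenes. The low end was Rpl32l among genes and Rpl26-ps2 (2.89) among pseudogenes.

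Replicate arrays differed more for the family than for most genes. The within-group SD had a median of 0.185 for the 69 genes and 0.189 for the 38 pseudogenes, beside 0.117 for all genes. It was above the 90th percentile of all genes in 32 genes (46.4%) and 18 pseudogenes (47.4%). Spread depends on brightness on these arrays. Between levels of 4 and 6 the median SD was 0.329 for 28 genes of the family, 0.329 for 5 pseudogenes and 0.164 for all genes. At levels of 10 and over it was 0.0843 for 8 genes, 0.128 for 9 pseudogenes and 0.0773 for all genes. Rpl17-ps3 (0.537), Rpl6 (0.533) and Rps18-ps6 (0.509) had the largest SD. For the even gene Rpl8, the 95% interval of the difference for ApoE-Stab2-KO minus ApoE-KO ran from 0.055 to 0.228, and for the uneven Rps12-ps24 that for ApoE-Stab1-KO minus Wildtype ran from 0.34 to 1.37. Both were among the members of smallest p in these comparisons, and the intervals carry no correction for that choice or for the number of genes. In these contrasts the adjusted p was 0.301 for Rpl8 and 0.149 for Rps12-ps24, so neither was called.

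**Figure D4:**
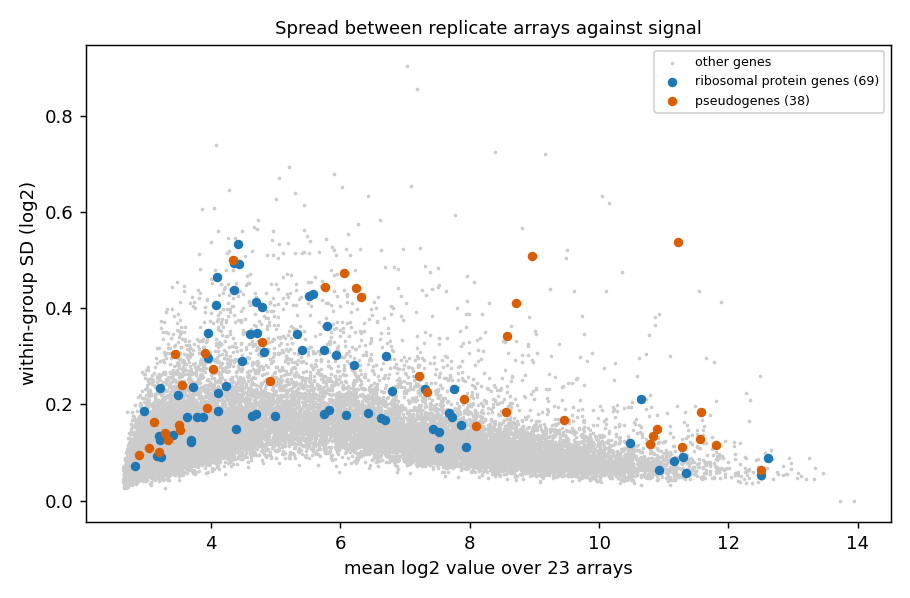
Within-group SD (log2, vertical axis) against the mean log2 value over 23 arrays (horizontal axis) for the 69 genes (blue), the 38 pseudogenes (orange) and all other genes (grey). The genes of the family between 4 and 6 reach an SD of 0.533, and the 8 genes at 10 and over stay at 0.210 or below.

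Genes that build, control or accompany the ribosome were read from 6 lists and the gene Fau. In the F-test 0 of these genes passed, beside the same 0.546% of all genes. At an unadjusted p under 0.05 there were 1 of 18 TOP translation factors, 3 of 15 RNA polymerase I genes, 6 of 50 assembly factors, 4 of 21 genes of mTORC1 and Myc control, 5 of 9 genes of the p53 response to ribosomal stress and 13 of 78 mitochondrial ribosomal proteins, beside 11.9% of all genes. In the p53 list the smallest F-test p were those of Ccng1, Cdkn2a and Mdm2 (F-test adjusted p = 0.177, 0.258 and 0.263). In ApoE-Stab1-KO minus Wildtype these differed by 0.15, 0.12 and 0.14 (adjusted p = 0.0737, 0.367 and 0.129). The median difference of the 9 genes in that comparison was 0.0077. Fau, whose protein is processed to Rps30, had an F-test adjusted p of 0.590. The test of Rpsa, the other ribosomal protein outside the symbol pattern, is not described here. The only pairwise call among these 192 genes, over the 6 comparisons, was Myc, a transcription factor that drives ribosomal protein genes. Myc was 9.04 ± 0.10 with ApoE-Stab1-KO plasma and 9.33 ± 0.15 with Wildtype plasma (SD, n = 6 each), a difference of -0.28 ± 0.06 (SE) with an adjusted p of 0.0452. In ApoE-Stab1-KO minus Wildtype this 1 call is 0.521% of the 192 genes, beside 0.364% of all genes. Myc passed in 3 of 12 fits that left out 1 array of these groups, with an adjusted p of 0.0121 to 0.108, the highest without Wildtype replicate 1. It passed in 5 of 8 other alternatives (0.0247 to 0.198, the highest in the fit of these 2 groups alone). The F-test adjusted p of Myc was 0.0921. In the same comparison the median difference of the 69 ribosomal protein genes was 0.0051, and -0.017 without Wildtype replicate 1.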

How the data were processed

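Total RNA of 23 endothelial cell cultures was measured on 1-colour arrays with biotin-labelled cRNA. The deposited table holds log2 values that the authors made with RMA, per the submitters' processing notes; no version of it is named there. RMA includes quantile normalization, so a difference is one relative to the rest of the array, and a change common to every gene is lost. Of 25428 probe sets, 723 had no gene symbol in the platform annotation and were left out of the tests, and 24704 genes were tested, the brighter probe set standing for a repeated symbol. No 2 arrays held identical values. In ApoE-KO replicate 1 values were stored with finer decimals than on the other arrays. The number of arrays limits the precision.

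Differences were tested with limma 3.58.1 (lmFit, eBayes) in R 4.3.3, with 1 mean per plasma group over all arrays (19 residual and 4.19 prior degrees of freedom). The moderated F-test and 6 pairwise contrasts had their p-values adjusted across 24704 genes (Benjamini-Hochberg). The fit was tested on simulated data. All 107 members matched a RefSeq entry by Entrez gene identifier. Promoters and chromosomes are of GRCm38.p6. The build of the array annotation was not used. Plots were made with Python 3.11.15 and matplotlib 3.10.9.

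Members and gene lists were chosen with earlier results of these data known. Named were members with an adjusted p under 0.05, the 5 smallest p of the F-test, the 3 smallest of each contrast, the 5 highest and 5 lowest levels of genes and of pseudogenes, the 3 largest within-group SDs, paralog pairs and stalk genes, and called genes or up to 3 of the smallest p in each other list. Not all of these are described above: some of the dimmest pseudogenes and most genes of the other lists were passed over. Alternatives were array centring, repeated quantile normalization, a filter on dim genes, the 2 groups alone, array weights, trend and robust settings, probe sets as features, the replicate number as a block and leaving out each array.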

Additional observations from a re-analysis of the deposited data

Results flagged for a closer look

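In groups of 5 or 6 arrays, 15 of 196 groups of values of the named members and of the family means held an array whose gap to its nearest neighbour was larger than Dixon's 95% limit allows, where chance gives about 5%. Wildtype replicate 5 had 5 of these values and ApoE-Stab1-KO replicate 1 had 4. Single members that were not named were not checked, so these counts do not rank the arrays over all 107 members. Of those not checked, Rpl7a-ps10 was 7.005 on ApoE-Stab1-KO replicate 1 (8.555 to 8.992 on the rest of its group). Rpl7-ps8 was also low there, at 4.848 (6.147 to 6.587), while Rps16 was high, at 5.492 (3.709 to 4.487). The 5% is only a rough guide here. Some members were named for a large within-group SD, and the groups of values come from the same arrays.

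On ApoE-Stab1-KO replicate 1 Rpl17-ps3 was 8.84 (other arrays of the group 10.84 to 11.65), Rpl34-ps2 was 10.82 (11.57 to 11.76), Rpl22l1 was 10.03 (10.56 to 10.86) and Rps20 was 4.30 (3.72 to 3.90). Wildtype replicate 5 gave 12.38 for Rplp1 (others 12.58 to 12.64), 7.95 for Rps18-ps6 (8.82 to 9.05), 3.71 for Rps19-ps13 (3.39 to 3.50), 7.13 for Rpl7l1 (6.62 to 6.73) and 6.06 for Rps4l (5.37 to 5.59). ApoE-KO replicate 5 was high for Rpl37 at 4.98 (4.21 to 4.42) and low for Rpl39l at 4.16 (4.50 to 4.62). ApoE-KO replicate 4 was high for Rpl3-ps1 at 11.70 (11.41 to 11.49). In the remaining groups Rpl9 was 3.90 on ApoE-Stab2-KO replicate 3 (2.98 to 3.31), Rpl7 was 5.29 on ApoE-Stab1-KO replicate 4 (3.48 to 4.09), and the mean of the 38 pseudogenes was 6.95 on ApoE-Stab2-KO replicate 5 (6.87 to 6.89).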

How the results depend on the processing

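The count of called members stayed at 0 in the F-test and in all 6 comparisons under array centring, repeated quantile normalization, the filter on dim genes, array weights, trend and robust settings, and probe sets as features, and in the 6 comparisons with the 2 groups alone. Leaving out single arrays gave 0 to 1 called members in the F-test and in ApoE-Stab1-KO minus Wildtype (the 1 being Rps12-ps24, without ApoE-Stab1-KO replicate 1) and 0 in the other 5 comparisons. With only genes above the median level, the median difference of the ribosomal protein genes in ApoE-Stab2-KO minus Wildtype was -0.017, against 0.031 over all 69. Leaving out single arrays gave a median of 0.0035 to 0.048 for these genes in ApoE-Stab2-KO minus ApoE-KO, the highest without ApoE-KO replicate 3. Other medians ran over single-array omissions from 0.013 to 0.058 in ApoE-Stab2-KO minus ApoE-Stab1-KO and from 0.011 to 0.059 in ApoE-Stab2-KO minus Wildtype for genes, and from -0.025 to 0.0075 in ApoE-Stab2-KO minus ApoE-KO for pseudogenes (-0.011 with the replicate block, -0.0025 with array weights). Unadjusted counts and the alternatives for Myc were chosen after seeing the data. Over single-array omissions the counts ran from 16 to 25 in ApoE-Stab2-KO minus ApoE-Stab1-KO, 7 to 12 in ApoE-Stab2-KO minus ApoE-KO (lowest without ApoE-KO replicate 1), 6 to 14 in ApoE-Stab1-KO minus ApoE-KO (lowest without ApoE-Stab1-KO replicate 2), 7 to 13 in ApoE-Stab2-KO minus Wildtype, 12 to 17 in ApoE-Stab1-KO minus Wildtype, 8 to 17 in ApoE-KO minus Wildtype (highest without Wildtype replicate 6) and 11 to 18 in the F-test. With genes above the median level only, where fewer members are tested, they were 15, 4, 6, 3, 11, 4 and 8 in the same order. Of 5379 pairwise differences of named members under the alternatives, 1 passed the threshold and 253 changed sign. F-tests are not in that count, and the causes were not tested.

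The labels give the groups shared replicate numbers. Over the 33 same-numbered pairs the correlation of deviations from the group means had a median of 0.0122 and was above 0.1 in 1. Over the 165 other pairs it had a median of -0.0031 and ran from -0.21 to 0.24. Such correlations cannot show whether same-numbered arrays shared a batch, which the labels do not state. The main fit did not pair the arrays. With the replicate number as a block the count of called members was 0 in every comparison and 19 members had an unadjusted p under 0.05 in the F-test, against 13 without it.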
